A study of Mus musculus with 6 samples.

Results

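The nuclear genes of oxidative phosphorylation were compared between wild-type (WT) and Edf1 knockout cells. Members were the rows of the count table whose gene symbol names a nuclear subunit of complexes I to V, that is Nduf with a letter a, b, c, s or v and a number (without Ndufa4), Sdha to Sdhd, Uqcr, Cox4 to Cox8 followed by a letter, and Atp5. The rule used names only and no measured value, but it was chosen with earlier results of these data known. It found 83 of 22851 genes, with 36 in complex I, 4 in complex II, 8 in complex III, 18 in complex IV and 17 in complex V.

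Oxidative phosphorylation takes place in the inner mitochondrial membrane. Complexes I and II pass electrons from NADH and succinate to coenzyme Q, complex III passes them to cytochrome c, and complex IV (cytochrome c oxidase) hands them to oxygen. Complexes I, III and IV pump protons on the way, and complex V (ATP synthase) lets them flow back to make ATP. All of these except complex II are mixtures of subunits encoded in the nucleus and in mitochondrial DNA. Motile cilia, which ependymal cells carry in large numbers, beat by hydrolysing ATP in dynein motors.

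The study set out to find genes that depend on Edf1, a transcriptional coactivator and ribosome-associated factor, during the formation of multiciliated ependymal cells. Radial glial cells, the progenitors that line the ventricles, were taken from brains of WT or Edf1 knockout mice (made with CRISPR/Cas9, C57BL/6J background per the labels) at P0 to P3 and grown with serum. Both genotypes were then kept for 6 days without serum to drive differentiation, and 3 libraries per genotype were sequenced. The labels say that the 3 are biological replicates but not how many mice stand behind each, so p-values measure the spread between these cultures.

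Total counts ran from 13071766 in WT replicate 2 to 28087006 in knockout replicate 3. Edf1 itself stood at 82.6, 85.9 and 80.2 CPM in the WT cultures against 9.84, 10.9 and 13.2 CPM in the Edf1 knockout ones. CPM relates each count to the total of its library after scaling for composition. Across all 14243 genes with enough counts, 26.9% changed at an adjusted p under 0.05 in edgeR's quasi-likelihood test, 14.2% lower and 12.7% higher in the knockout. Markers of other cell types moved with genotype as well. The ependymal markers were present in every library, with Foxj1, the master regulator of motile cilia, at 767, 838 and 759 CPM in the WT cultures against 517, 517 and 535 CPM in the Edf1 knockout ones. All 6 fell (median log2 fold change -0.73), and their summed level went from between 1906 and 2035 CPM in WT to between 1127 and 1256 CPM in the knockout. Of the 6 microglial markers 5 fell, from a sum of 635 to 664 CPM to one of 403 to 429 CPM. Of 9 fibroblast, mural and endothelial markers the 5 with enough counts rose, from a sum of 88.7 to 104 CPM to one of 149 to 183 CPM, while the endothelial marker Cldn5 had 0 counts in 5 of 6 libraries. Of 5 neuronal markers 2 of the 4 tested fell, and summed levels were 39.9 to 42.7 CPM in WT and 35.8 to 38.6 CPM in the knockout. Of 6 radial glia and astrocyte markers 2 rose and 1 fell, with sums of 2873 to 2948 CPM and 2956 to 3099 CPM. The part of these shifts in the values below was not tested, and in such bulk libraries fewer cells of a type and less RNA per cell cannot be told apart.

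Among the members 1 gene rose, Atp5b, the catalytic beta subunit of ATP synthase, by 0.57 on the log2 scale, a fold of 1.48. The other 78 had log2 fold changes between -0.39 and 0.13. Of the 79 members with enough counts, 12 fell and 66 did not pass the test. The falls were small, from -0.16 for Sdha to -0.39 for Ndufb5. The 12 falls make 15.2% of the tested members against 14.2% of all tested genes, so they are near the background. The 1 rise makes 1.27% against 12.7%. The 4 untested members (Cox6a2, Cox7b2, Cox8b and Cox8c) had too few counts.

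**Figure D1:**
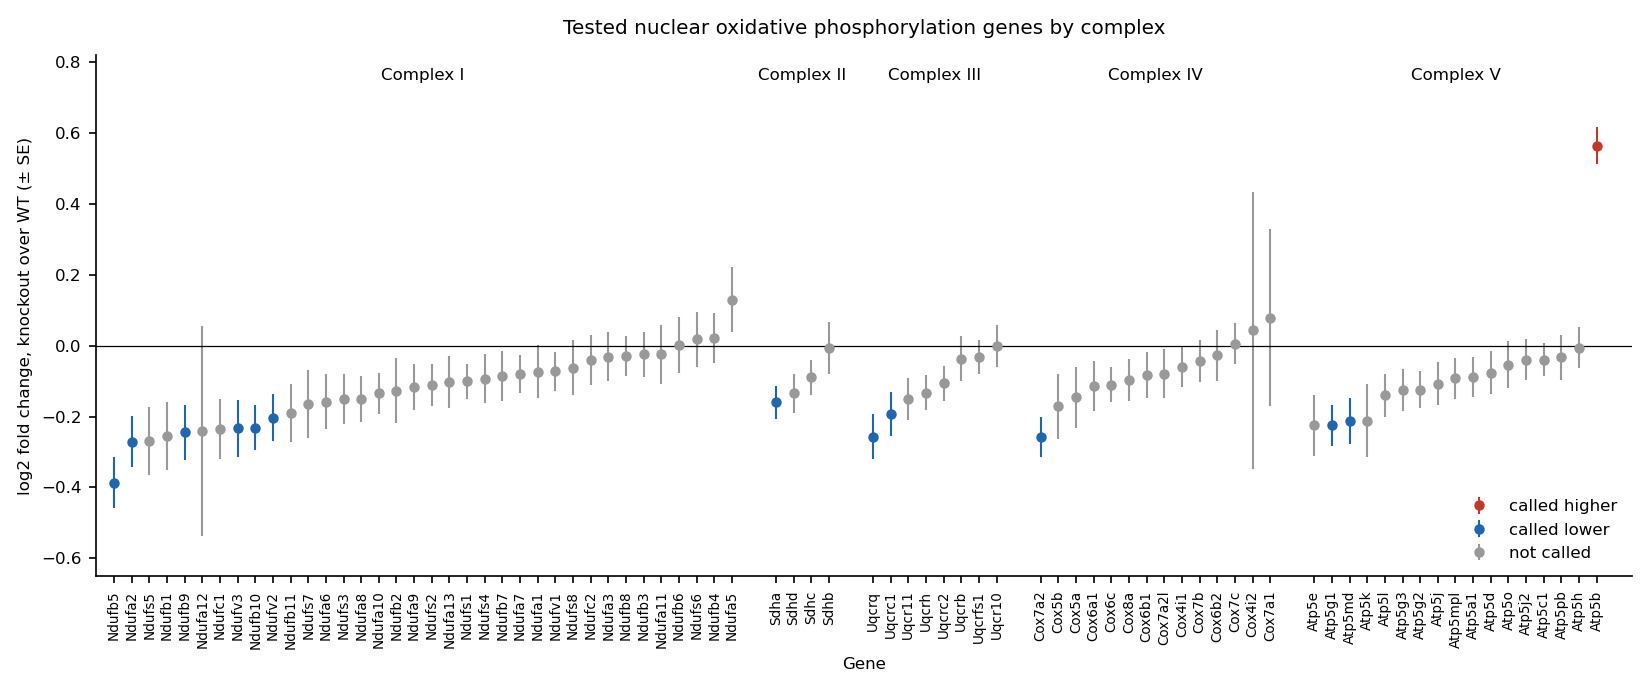
Each point is 1 of the 79 tested genes, with its log2 fold change (knockout over WT) and SE on the vertical axis and the genes ordered within complexes I to V, coloured by the call at an adjusted p under 0.05. Most points lie slightly below 0, and Atp5b stands alone at 0.57.

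The promoters of 3 members are printed for the contrast between them. They are Atp5b, the only member that rose, Atp5g1, which fell, and Cox7a2, which fell under every setting tried. Each line gives the bases from 250 to 51 before the RefSeq start (GRCm38.p6) on the gene's own strand, at chr10:128083057-128083256 on the plus strand for Atp5b, chr11:96075682-96075881 on the minus strand for Atp5g1 and chr9:79759904-79760103 on the minus strand for Cox7a2. Capitals mark the letters CCAAT on either strand.
Atp5b: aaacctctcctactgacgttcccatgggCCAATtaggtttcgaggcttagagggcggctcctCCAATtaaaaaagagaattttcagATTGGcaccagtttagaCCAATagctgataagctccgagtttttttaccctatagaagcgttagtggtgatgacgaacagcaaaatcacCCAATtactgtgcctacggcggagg
Atp5g1: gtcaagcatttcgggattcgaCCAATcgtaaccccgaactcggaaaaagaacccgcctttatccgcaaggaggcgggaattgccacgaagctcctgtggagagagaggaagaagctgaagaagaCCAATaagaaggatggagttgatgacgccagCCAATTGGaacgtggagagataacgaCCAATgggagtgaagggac
Cox7a2: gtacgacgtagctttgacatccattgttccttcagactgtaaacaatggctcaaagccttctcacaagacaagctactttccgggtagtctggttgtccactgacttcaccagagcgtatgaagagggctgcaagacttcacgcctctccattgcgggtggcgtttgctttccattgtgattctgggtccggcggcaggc
The letters CCAAT or their reverse complement occur 5 times before the start of Atp5b and 5 times before that of Atp5g1, where 2 of the 5 overlap on opposite strands. In the printed bases of Cox7a2 there are 0. Among 11342 tested genes with a promoter in the table, 52 (0.458%) had at least 5 such matches in the 300 bases around the start, and Atp5b and Atp5g1 were the only 2 of 68 members that did. CCAAT was added to the motifs after the Atp5b promoter had been seen, and the cut-off of 5 is the count in Atp5b itself. The share of 0.458% is therefore a description and not a test. Both genes with 5 matches changed, but in opposite directions.

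Promoters of 68 of the 83 members were in the RefSeq table. Over 300 bases (250 before and 50 after the start, both strands), the core letters of the NRF1 motif, CATGCGC, were in 13 of the 68 (19.1%) against 6.74% of all 11342. NRF1 is a transcription factor known for binding promoters of respiratory chain genes. The YY1 letters AAGATGG were in 10 (14.7%) against 6.91%, the ETS letters CCGGAAG in 16 (23.5%) against 16.9%, and CCAAT in 30 (44.1%) against 38.8%. None of these letter strings contains another. At least 1 of the NRF1, ETS and YY1 strings was in 32 of 68 members, and in 2 of the 9 members with a promoter that fell. The share over all tested genes was not computed for this combined count, and 9 genes are few, so no difference is read from it. A match is a description of letters and not of binding.

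Every complex had a median log2 fold change slightly below 0. It was -0.11 for complex I, -0.11 for complex II, -0.12 for complex III, -0.08 for complex IV and -0.09 for complex V, beside 0.0029 over all tested genes. Of the 79 members, 71 (89.9%) lay below 0, compared with 49.5% of all tested genes. WT replicate 2, which also had the fewest counts in all, moved these values. It was the highest WT library in the summed level of all 5 complexes, and without it 58 of 79 lay below 0 and the median over the members went from -0.10 to -0.044 (0.0031 over all tested genes). With offsets for each library's trend in GC content and transcript length 47 of 79 lay below 0, the median over the members was -0.030, beside -0.017 over all tested genes, and that of complex IV was 0.020. The members' transcripts are short, with a median of 861 nt against 3026 nt for all tested genes.

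In the knockout 29 members (36.7%) lay below every WT library, against 22.1% of all tested genes, and 1 lay above, where the share over all genes was 21.3%. The count of falls also depended on single libraries. It was 2 (2.53%, against 10.1% of all tested genes in the same refit) without knockout replicate 1, 5 (6.33% against 9.97%) without knockout replicate 2 and 3 (3.797% against 10.1%) without knockout replicate 3. It was 9 (11.4% against 10.9%) without WT replicate 1, 12 (15.2% against 15.7%) without WT replicate 2 and 18 (22.8% against 13.3%) without WT replicate 3. The members' share thus lay below that of all genes in the 3 fits without a knockout library. It was slightly above without WT replicate 1, slightly below without WT replicate 2 and clearly above without WT replicate 3. Atp5b, Ndufb5 and Cox7a2 passed in all 15 refits, and the other 10 changed genes kept their direction in all 15 but missed the threshold in at least 2.

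**Figure D2:**
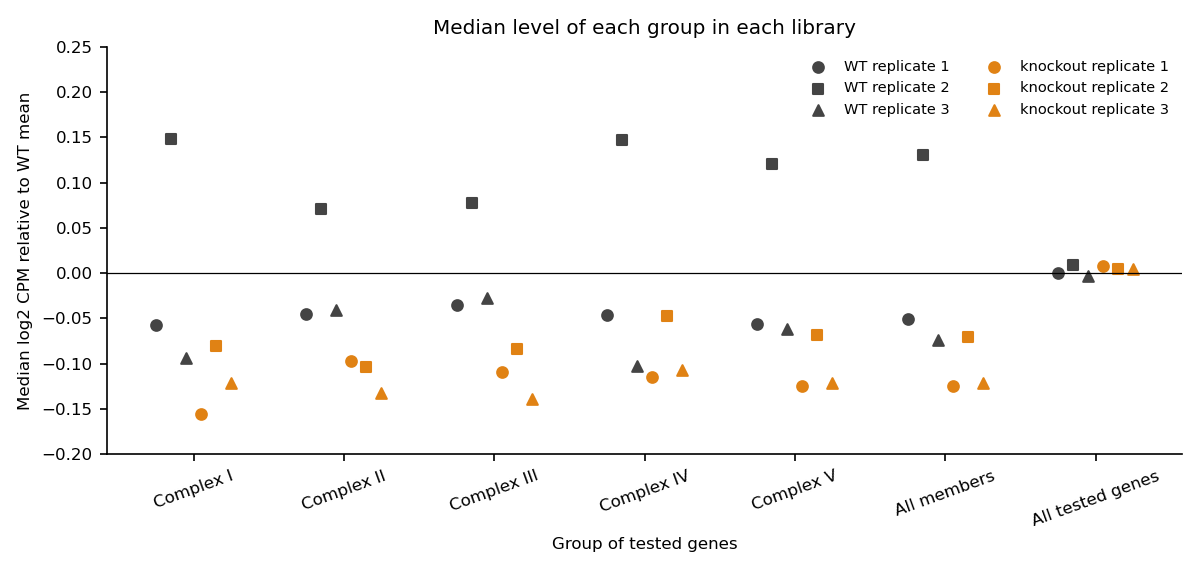
Each point is 1 library, and the vertical axis gives the median over the tested genes of a group of log2 CPM relative to the mean of the 3 WT libraries. WT replicate 2 is above the other 5 libraries in every complex, and WT replicates 1 and 3 lie nearer to a knockout library than to it.

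Complex I, the NADH dehydrogenase, had 6 falls and 0 rises among its 36 genes. The falls make 16.7%, near the 14.2% of all tested genes, and the rises 0% beside 12.7%. The count of rises was also 0 at an unadjusted p under 0.05 and with DESeq2 and limma voom, as it was in complexes II, III and IV. At that unadjusted p 12 of the 36 fell, and over all 14243 tested genes 2668 rose and 2787 fell. With the GC content and length offsets, or without WT replicate 2, 1 gene of complex I rose (Ndufa5). Summed levels were 3195, 3631 and 3089 CPM for WT and 2958, 3056 and 2998 CPM for the knockout (replicates 1, 2 and 3 in each list of 3 values here and below). The knockout libraries were all below the WT libraries. Of the 7 core subunits, which carry out the electron transfer, 1 fell (14.3%), and of the 29 accessory subunits 5 fell (17.2%). Both shares were near that of all tested genes, and the median log2 fold changes were -0.11 and -0.12.

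The core subunit that fell was Ndufv2, an iron-sulfur protein of the NADH-oxidising tip, at 126, 143 and 119 CPM in the WT cultures against 109.9, 115 and 111 CPM in the Edf1 knockout ones (-0.20 on the log2 scale with SE 0.067, adjusted p 0.0401, edgeR's quasi-likelihood test here and for every adjusted p of a gene below). Its neighbour in the complex, the accessory subunit Ndufv3, was at 76.5, 92.2 and 72.6 CPM in the WT cultures against 67.1, 71.0 and 66.4 CPM in the Edf1 knockout ones (-0.23 on the log2 scale with SE 0.081, adjusted p 0.0492). Both had non-overlapping groups, and Ndufv3 lay near the threshold and passed in 6 of 15 refits. Ndufa2, an accessory subunit of the same matrix arm, was at 87.9, 99.0 and 79.7 CPM in the WT cultures against 72.4, 74.1 and 73.9 CPM in the Edf1 knockout ones (-0.27 on the log2 scale with SE 0.073, adjusted p 0.0152), again without overlap, and its exons overlap those of Tmco6 on the other strand.

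3 accessory subunits of the membrane arm fell too. Ndufb5 had the largest fall of all 79 tested members, from 146, 175 and 146 CPM to 115, 123 and 119.6 CPM (-0.39 on the log2 scale with SE 0.071, adjusted p 0.00155). Every knockout library was well below the lowest WT library. Part of its exons overlap those of Mrpl47 on the other strand, and whether the counting used strand is not given in the sources used here. Ndufb10 was at 139.6, 163 and 141 CPM in the WT cultures against 126, 124 and 127 CPM in the Edf1 knockout ones (-0.23 on the log2 scale with SE 0.063, adjusted p 0.0172), and per length of transcript it was the most abundant gene of the complex, with 202 ± 18.1 CPM per kb in WT (mean ± SD, n = 3). Its knockout libraries lay close together below all WT libraries. Ndufa7 followed with 199 ± 8.07 CPM per kb, within the spread of Ndufb10. Ndufb9 was at 101, 123 and 97.8 CPM in the WT cultures against 92.2, 87.9 and 90.2 CPM in the Edf1 knockout ones (-0.24 on the log2 scale with SE 0.079, adjusted p 0.0366), again with no overlap, but 25.5% of the 31-base stretches of its transcript also occur in another annotated gene. In each of the 3 fits without 1 knockout library, Ndufb5 alone of the 6 genes passed.

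At the upper end of complex I stood Ndufa5, an accessory subunit, at 27.0, 34.6 and 30.3 CPM in the WT cultures against 32.3, 35.7 and 31.9 CPM in the Edf1 knockout ones (0.13 on the log2 scale with SE 0.092, adjusted p 0.331), and its groups overlapped. It passed the threshold as higher without WT replicate 2 (in the same refit the falls in all members numbered 12) and with the GC content and length offsets. Ndufa12 was singled out after its values were seen, because it split the libraries across the genotypes. It stood at 71.8, 71.2 and 30.4 CPM in the WT cultures against 43.4, 31.03 and 70.0 CPM in the Edf1 knockout ones (-0.24 on the log2 scale with SE 0.30, adjusted p 0.596). WT replicates 1 and 2 and knockout replicate 3 lay between 70.0 and 71.8 CPM and the other 3 libraries between 30.4 and 43.4 CPM, and 30.0% of its 31-base stretches are shared, mostly with a processed pseudogene.

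Complex II, the succinate dehydrogenase, is encoded by 4 nuclear genes alone. Its summed level was 905, 991 and 907 CPM for WT and 855, 863 and 848 CPM for the knockout, without overlap. Most of this sum came from Sdha in every library. Sdha, the flavoprotein that oxidises succinate, fell from 571, 620.1 and 572 CPM to 521, 534 and 523 CPM (-0.16 on the log2 scale with SE 0.047, adjusted p 0.0247), and it was also the most abundant per length, with 203 ± 9.72 CPM per kb in WT. Sdha passed in none of the 3 fits without 1 knockout library. Sdhb, the iron-sulfur subunit that receives the electrons, was at 104, 126 and 103 CPM in the WT cultures against 113, 109 and 108 CPM in the Edf1 knockout ones (-0.01 on the log2 scale with SE 0.074, adjusted p 0.967), with overlapping groups. The membrane anchors Sdhc and Sdhd lay below WT in all 3 knockout libraries but did not pass. Sdhc was at 159.9, 173 and 164 CPM in the WT cultures against 157, 155 and 155 CPM in the Edf1 knockout ones (-0.09 on the log2 scale with SE 0.050, adjusted p 0.212), and Sdhd at 70.4, 72.2 and 68.2 CPM in the WT cultures against 64.6, 65.0 and 62.5 CPM in the Edf1 knockout ones (-0.13 on the log2 scale with SE 0.054, adjusted p 0.0883).

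Complex III, the cytochrome bc1 complex, had 2 falls among 8 genes. That is 25%, beside 14.2% of all tested genes, but on few genes. Uqcrc1, a large structural core protein facing the matrix, was at 248, 288 and 242 CPM in the WT cultures against 222, 232 and 226 CPM in the Edf1 knockout ones (-0.19 on the log2 scale with SE 0.063, adjusted p 0.0401). Uqcrq, a small subunit, was at 127, 141 and 126 CPM in the WT cultures against 105, 118 and 106 CPM in the Edf1 knockout ones (-0.26 on the log2 scale with SE 0.064, adjusted p 0.0102). In both, every knockout library was below every WT library. Without 1 knockout library Uqcrc1 did not pass in any of the 3 fits, and Uqcrq passed only without knockout replicate 2. Uqcrq was the most abundant gene of the complex per length of its shortest principal transcript (325 ± 19.7 CPM per kb in WT), but with the longest transcripts as lengths Uqcrh came first. Nearest to 0 was Uqcr10, another small subunit, at 77.0, 87.6 and 82.2 CPM in the WT cultures against 80.8, 83.7 and 81.5 CPM in the Edf1 knockout ones (-0.00061 on the log2 scale with SE 0.060, adjusted p 0.995). Summed levels of the complex were 1150.1, 1253 and 1149 CPM for WT and 1074, 1107 and 1076 CPM for the knockout, and did not overlap.

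Complex IV had 1 fall among its 14 tested genes (7.14%), below the 14.2% of all tested genes. Its summed levels overlapped, with 1755, 1993 and 1703 CPM for WT and 1690.3, 1742 and 1681 CPM for the knockout. The fall was in Cox7a2, the general form of subunit 7a, at 86.7, 93.8 and 89.0 CPM in the WT cultures against 75.5, 77.3 and 72.5 CPM in the Edf1 knockout ones (-0.26 on the log2 scale with SE 0.057, adjusted p 0.00504). Its groups were well apart. Many subunits of this complex exist as several forms with their own gene, and in these cultures the general ones had the higher levels in both genotypes. Cox4i1 was the most abundant gene per length with 579 ± 51.1 CPM per kb in WT, and its counterpart Cox4i2, known from lung and from hypoxia, had 1.10 ± 0.415 CPM per kb.

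None of the other general forms passed the test. Cox4i1 was at 418, 474 and 401 CPM in the WT cultures against 414, 419 and 409 CPM in the Edf1 knockout ones (-0.06 on the log2 scale with SE 0.059, adjusted p 0.499). Cox6a1 was at 174, 206 and 167 CPM in the WT cultures against 169.9, 172 and 163 CPM in the Edf1 knockout ones (-0.11 on the log2 scale with SE 0.071, adjusted p 0.263). Cox6b1 was at 178, 210.3 and 179 CPM in the WT cultures against 181, 184 and 172 CPM in the Edf1 knockout ones (-0.08 on the log2 scale with SE 0.065, adjusted p 0.393). The groups of these 3 genes overlapped, and in each WT replicate 2 was the highest library. Cox8a was at 149, 161 and 139 CPM in the WT cultures against 138, 144 and 138 CPM in the Edf1 knockout ones (-0.10 on the log2 scale with SE 0.059, adjusted p 0.259), and Cox7a2l, which takes part in joining complexes III and IV, at 115, 131 and 108 CPM in the WT cultures against 109, 112 and 115 CPM in the Edf1 knockout ones (-0.08 on the log2 scale with SE 0.068, adjusted p 0.436). Both overlapped as well.

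Among the tissue-restricted forms, 1 stood out by its level. Cox6b2, known as the testis form of subunit 6b, was at 70.1, 74.4 and 68.7 CPM in the WT cultures against 62.3, 75.7 and 70.8 CPM in the Edf1 knockout ones (-0.03 on the log2 scale with SE 0.072, adjusted p 0.823). Its ratio to Cox6b1 in CPM was 0.393, 0.354 and 0.383 for WT and 0.344, 0.412 and 0.413 for the knockout, and the 2 ranges overlapped. Per length it had 153 ± 6.36 CPM per kb in WT against 306 ± 29.4 CPM per kb for Cox6b1, and none of its 31-base stretches is shared with another annotated gene. The muscle form Cox7a1 was far lower, at 1.85, 3.03 and 2.11 CPM in the WT cultures against 2.95, 2.28 and 2.02 CPM in the Edf1 knockout ones (0.08 on the log2 scale with SE 0.25, adjusted p 0.848), and Cox4i2 lower again at 0.829, 1.09 and 0.487 CPM in the WT cultures against 0.553, 1.17 and 0.708 CPM in the Edf1 knockout ones (0.04 on the log2 scale with SE 0.39, adjusted p 0.950), where the number of counts limits what can be seen. The muscle forms Cox6a2 and Cox8b and the testis form Cox8c had too few counts to be tested. Cox6a2 was at 0.301, 0.155 and 0.649 CPM in the WT cultures against 0.307, 0 and 0.0708 CPM in the Edf1 knockout ones. Cox8b was at 0, 0.0777 and 0.108 CPM in the WT cultures against 0, 0.0557 and 0 CPM in the Edf1 knockout ones. Cox8c was at 0.678, 0.388 and 0.324 CPM in the WT cultures against 0.184, 0.167 and 0.142 CPM in the Edf1 knockout ones, with the knockout libraries lower on counts too few to test.

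**Figure D3:**
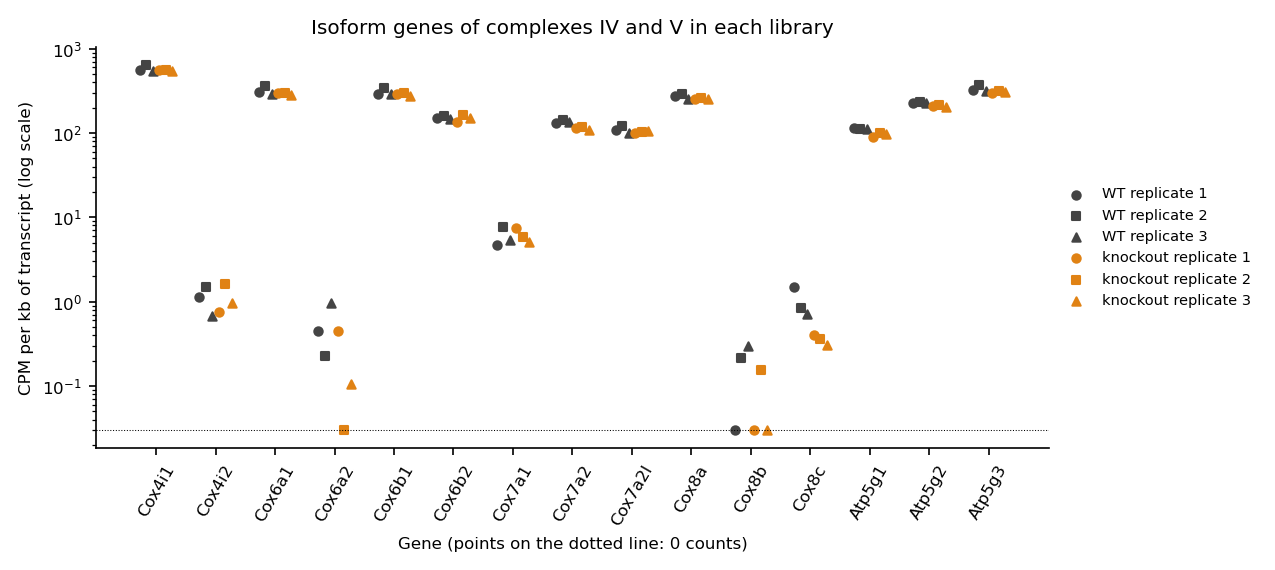
Each point is 1 library, and the vertical log axis gives CPM per kb of transcript for the genes of subunits with several forms in complexes IV and V, with libraries at 0 counts drawn on the dotted line. Cox6b2 lies near the general forms, while Cox4i2, Cox7a1, Cox6a2, Cox8b and Cox8c lie far below them in all 6 libraries.

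Complex V was the only complex with a higher mean summed level in the knockout. The sums were 4142, 4638 and 4079.9 CPM for the WT replicates and 4511, 4698 and 4485 CPM for the knockout replicates, with means of 4287 ± 306 and 4565 ± 116 (SD), and the groups overlapped. Without Atp5b the sums were 3185, 3566 and 3117 CPM and 3050.0, 3183 and 3036 CPM, and still overlapped. Atp5b was at 956, 1072 and 963 CPM in the WT cultures against 1461, 1514 and 1448 CPM in the Edf1 knockout ones (0.57 on the log2 scale with SE 0.052, adjusted p 6.89e-06). The lowest knockout library was well above the highest WT library, and the adjusted p over the 15 alternatives ran from 7.03e-20 to 0.000173. It was the most abundant ATP synthase gene per length in both genotypes, with 520.4 ± 33.9 CPM per kb in WT and 769.7 ± 18.2 CPM per kb in the knockout. Of 204 genes with a mean of at least 500 CPM, 46 rose, beside 1804 of all 14243 tested genes (12.7%), so rises were more frequent among abundant genes. Among the 204, 5 genes, Atp5b included, rose at least as much as Atp5b. Over all tested genes 739 (5.19%) had a log2 fold change at least as high.

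None of the other genes of complex V passed as higher. Atp5a1, the alpha subunit that alternates with beta in the catalytic ring, was at 1013, 1122 and 959.6 CPM in the WT cultures against 962, 1007 and 940.0 CPM in the Edf1 knockout ones (-0.09 on the log2 scale with SE 0.057, adjusted p 0.286), with overlapping groups. The ratio of Atp5b to Atp5a1 in CPM was 0.944, 0.956 and 1.004 for WT and 1.52, 1.504 and 1.54 for the knockout. Against Atp5c1, the gamma subunit of the central stalk, the ratio was 4.03, 4.23 and 3.90 for WT and 6.15, 6.20 and 6.16 for the knockout. In the assembled enzyme alpha and beta are present in equal number. All 16 other genes of the complex had a log2 fold change below 0.

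Of the 3 genes for the c subunit, which encode the same mature protein of the rotor ring, Atp5g1 fell and the others did not pass. Atp5g1 was at 67.5, 66.3 and 66.4 CPM in the WT cultures against 53.9, 59.8 and 57.6 CPM in the Edf1 knockout ones (-0.22 on the log2 scale with SE 0.058, adjusted p 0.0128). Atp5g2 was at 99.3, 102 and 99.0 CPM in the WT cultures against 91.2, 94.3 and 90.2 CPM in the Edf1 knockout ones (-0.12 on the log2 scale with SE 0.052, adjusted p 0.101), but 87.7% of its 31-base stretches are shared with other annotated genes, the highest share of all members, so its count is uncertain. Atp5g3, the most abundant of the 3 per length (336 ± 27.4 CPM per kb in WT), was at 232, 262 and 225 CPM in the WT cultures against 215, 227 and 217 CPM in the Edf1 knockout ones (-0.12 on the log2 scale with SE 0.059, adjusted p 0.144). The ratio of Atp5g1 to Atp5g3 overlapped between the genotypes, from 0.253 to 0.295 in WT and from 0.250 to 0.265 in the knockout. Atp5g1 did not pass without knockout replicate 1 or without WT replicate 1. Atp5md, a small membrane subunit, fell as well and was at 80.4, 88.2 and 84.5 CPM in the WT cultures against 68.9, 78.4 and 70.7 CPM in the Edf1 knockout ones (-0.21 on the log2 scale with SE 0.065, adjusted p 0.0287). The lowest log2 fold change belonged to Atp5e, the small epsilon subunit of the stalk, at 134, 165 and 124 CPM in the WT cultures against 116, 124 and 121 CPM in the Edf1 knockout ones (-0.22 on the log2 scale with SE 0.087, adjusted p 0.0740). Its groups were apart by a narrow margin, and it did not pass. The exons of Atp5md overlap those of Taf5 on the other strand, and it did not pass without knockout replicate 1 or 3 or without WT replicate 3.

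**Figure D4:**
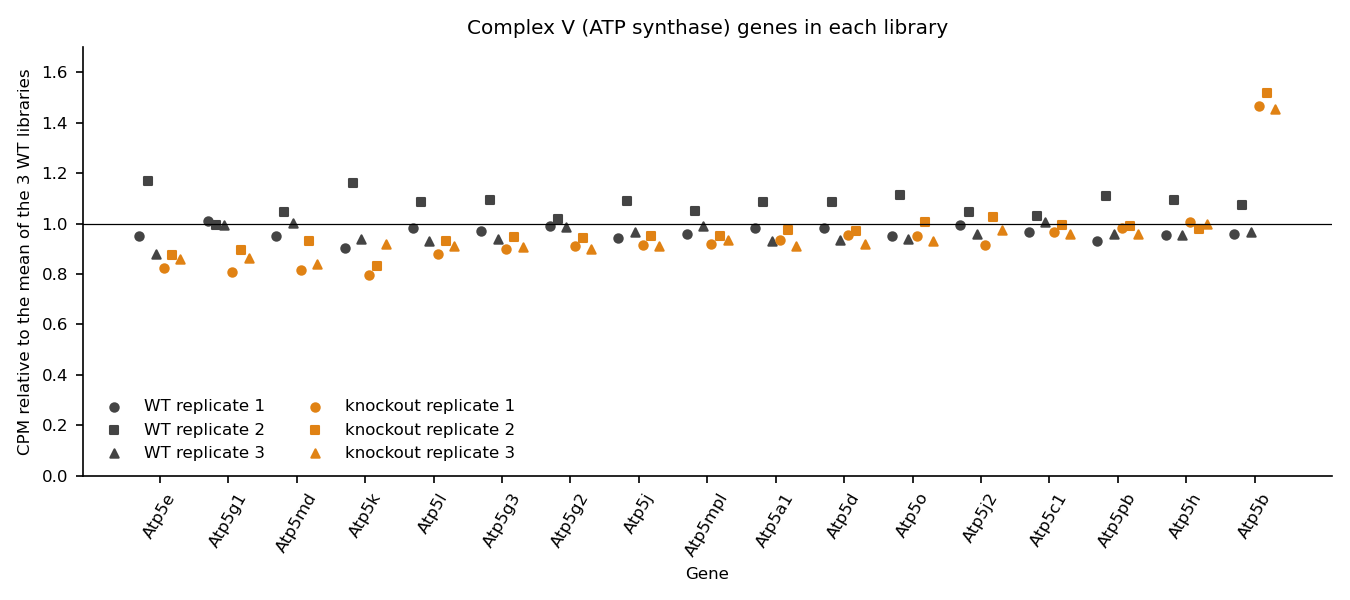
Each point is 1 library, and the vertical axis gives the CPM of each complex V gene divided by its mean over the 3 WT libraries. All genes except Atp5b scatter around 1 with the knockout libraries mostly just below it, and the 3 knockout libraries of Atp5b lie far above its WT libraries.

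Atp5b lies at chr10:128083273-128090391 (GENCODE M21, GRCm38, plus strand), near the end of chromosome 10, and its neighbours rose with it. Of the 76 other tested genes that start between 125 and 130 Mb (RefSeq positions, GRCm38.p6), 67 rose (88.2%, against 12.7% of all tested genes), 0 fell and all 76 had a log2 fold change above 0. Their median was 0.63 (fold 1.54), with quartiles at 0.48 and 0.82, and 26 of the 76 were below Atp5b. The median over the 76 genes of log2 CPM relative to the WT mean was 0.65, 0.63 and 0.64 in the knockout libraries and between -0.017 and 0.015 in the WT libraries. This stretch was chosen after its values had been seen, because it holds Atp5b.

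The genes around Atp5b differ in function. Of the 3 nearest tested genes before it, Prim1, the primase subunit of DNA replication, had a log2 fold change of 1.09, Naca, a ribosome-associated chaperone, 0.37, and Ptges3, a co-chaperone, 0.27. Of the 3 nearest after it, Baz2a, a chromatin protein, had 0.62, Rbms2, an RNA-binding protein, 0.84 and Spryd4 0.41. All 6 passed as higher. Among 281 stretches of 5 Mb with at least 20 tested genes, this one ranked first by median, and the next, at 175 to 180 Mb of chromosome 2, had a median of 0.18.

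The rest of chromosome 10 showed no such shift. Its 605 tested genes before 125 Mb had a median of -0.0062, with 77 rises and 79 falls. In the 5 Mb before the stretch 4 of 18 genes rose. Usp15 and Mon2, which start at 123105006 and 122992060, had log2 fold changes of 0.65 and 0.72, and Ppm1h, the next tested gene before them at 122677428, had -0.34 and did not pass. Avpr1a, the next before that at 122448499, had 0.90 and passed as higher. DNA copy number was not analysed here, and the rise of Atp5b and that of the stretch around it cannot be told apart.

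**Figure D5:**
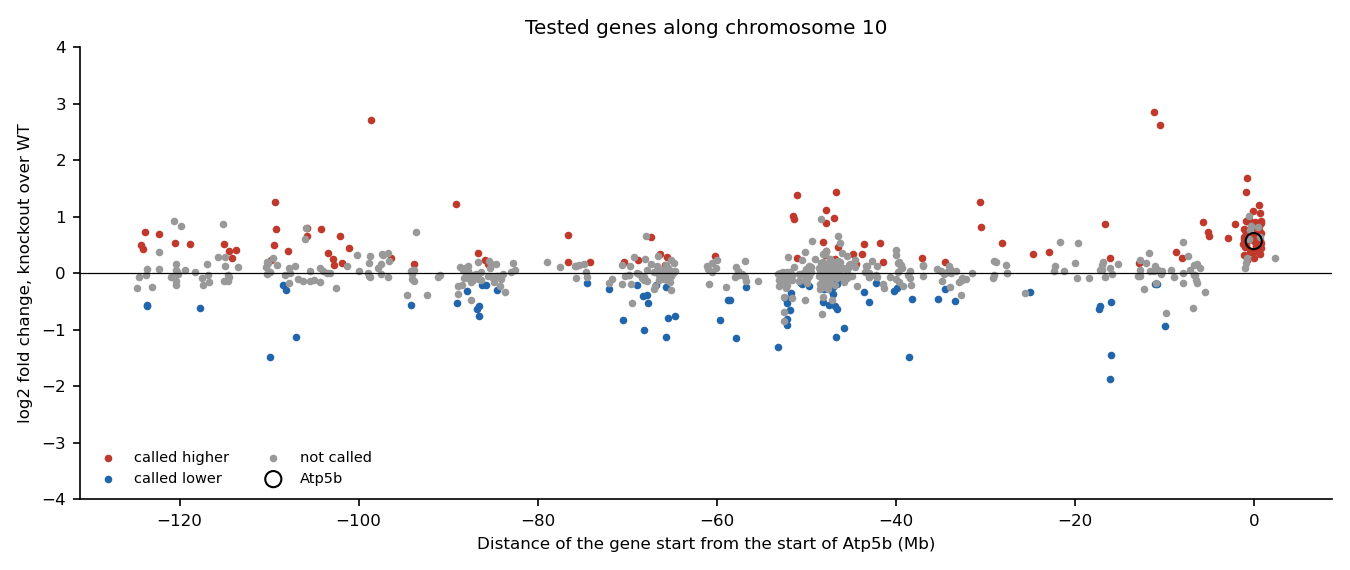
Each point is 1 of 683 tested genes of chromosome 10, placed by the distance of its start from that of Atp5b in Mb, with its log2 fold change (knockout over WT) on the vertical axis and its colour by the call. The genes around Atp5b (ring) lie above 0 together, while those before them scatter around 0.

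No other member lies in that stretch. Of the other members on chromosome 10, Ndufa12 lies among genes with a median of 0.022, and Ndufs7, Uqcr11 and Atp5d among genes with a median of -0.013. For the 12 members that fell, the medians of the other genes in their 5 Mb stretches ran from -0.045 to 0.060. Atp5b was the only rise in edgeR's quasi-likelihood test, so without it the count of rises there was necessarily 0 of 78 members. The count without Atp5b was also 0 at an unadjusted p under 0.05, with DESeq2 and with limma voom. At that unadjusted p 26 members fell, and over all 14243 tested genes 2668 rose and 2787 fell. With the GC content and length offsets, or without WT replicate 2, Ndufa5 passed as higher.

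Other genes of the pathway were read from lists of their roles. The 13 subunits encoded in mitochondrial DNA had a median log2 fold change of 0.03, with 1 rise (7.69%, beside 12.7% of all tested genes) and 0 falls. The rise was in ND4L, at 6.25, 8.39 and 8.54 CPM in the WT cultures against 12.8, 8.25 and 16.5 CPM in the Edf1 knockout ones (0.74 on the log2 scale with SE 0.21, adjusted p 0.0222), whose groups overlapped and 98.9% of whose 31-base stretches are shared with a nuclear copy. ND4L did not pass without knockout replicate 1 or 3 or without WT replicate 1. At an unadjusted p under 0.05 the 13 subunits had 2 rises and 0 falls, and DESeq2 and limma voom gave 1 and 0 each. Of 4 nuclear subunits outside the name rule, Ndufa4, now counted with complex IV, fell and was at 145, 164 and 136 CPM in the WT cultures against 126, 129.9 and 129 CPM in the Edf1 knockout ones (-0.21 on the log2 scale with SE 0.066, adjusted p 0.0321). Ndufa4 did not pass whichever knockout library was left out, without WT replicate 1, or with the GC content and length offsets.

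Assembly factors, which build the complexes and are not part of the finished enzymes, had 7 falls and 0 rises among 54 tested genes, a share of 12.96% beside the 14.2% of all tested genes, with a median of -0.06. The count of rises was 0 at an unadjusted p under 0.05, with DESeq2 and with limma voom too. At that unadjusted p 13 factors fell, beside 2668 rises and 2787 falls among all 14243 tested genes. Of the 15 factors of complex I, 4 fell (26.7%). The largest fall was in Ndufaf3, at 60.5, 79.2 and 56.4 CPM in the WT cultures against 33.8, 32.5 and 31.5 CPM in the Edf1 knockout ones (-0.995 on the log2 scale with SE 0.11, adjusted p 2.4e-05), so that the level fell by 49.8%. Its exons overlap those of Impdh2 on the other strand. The smallest of the 4 was in Ndufaf8, at 16.9, 20.1 and 15.4 CPM in the WT cultures against 14.1, 12.4 and 14.1 CPM in the Edf1 knockout ones (-0.35 on the log2 scale with SE 0.11, adjusted p 0.0321). Ndufaf8 did not pass whichever knockout library was left out, or without WT replicate 1 or 2. Nubpl, which delivers iron-sulfur clusters, and Ndufaf7, which methylates a core subunit, had log2 fold changes of -0.43 and -0.35 (adjusted p 0.00443 and 0.00201).

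Sdhaf4, which helps Sdha into complex II, was at 40.9, 51.3 and 41.2 CPM in the WT cultures against 31.9, 32.3 and 31.4 CPM in the Edf1 knockout ones (-0.47 on the log2 scale with SE 0.087, adjusted p 0.00166). Its groups were clearly apart, and it was 1 of 4 tested factors of that complex. Of 25 factors of complex IV 2 fell (8%, below the 14.2% of all tested genes). Pet100 was at 14.8, 14.7 and 12.1 CPM in the WT cultures against 10.5, 10.9 and 11.2 CPM in the Edf1 knockout ones (-0.35 on the log2 scale with SE 0.11, adjusted p 0.0274), but 71.8% of its 31-base stretches are shared, mostly with Pcp2 on the other strand. Cox10, which makes heme for cytochrome c oxidase, was at 22.3, 22.4 and 19.7 CPM in the WT cultures against 15.2, 19.4 and 16.2 CPM in the Edf1 knockout ones (-0.34 on the log2 scale with SE 0.10, adjusted p 0.0249). Pet100 did not pass whichever knockout library was left out, without WT replicate 1, or with the GC content and length offsets. Cox10 did not pass without knockout replicate 1 or 3 or without WT replicate 1. Of the 6 factors of complex III and the 4 of complex V, 0 changed by edgeR's quasi-likelihood test, 0 at an unadjusted p under 0.05, and 0 with DESeq2 or limma voom.

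Among 17 electron carriers and genes of coenzyme Q, 2 rose and 3 fell. The shares, 11.8% higher and 17.6% lower, were near the 12.7% and 14.2% of all tested genes. DESeq2 called 2 rises and 2 falls. Coq10a, a coenzyme Q binding protein, was at 15.3, 17.6 and 17.2 CPM in the WT cultures against 26.5, 24.7 and 24.2 CPM in the Edf1 knockout ones (0.60 on the log2 scale with SE 0.085, adjusted p 0.000242), and it lies in the same stretch of chromosome 10 as Atp5b. Coq10b, its paralog on chromosome 1, had a log2 fold change of 0.39 (adjusted p 0.00182), with 42.3% of its 31-base stretches shared. Coq9, which takes part in coenzyme Q synthesis, was at 42.3, 50.7 and 42.2 CPM in the WT cultures against 37.7, 33.2 and 33.8 CPM in the Edf1 knockout ones (-0.36 on the log2 scale with SE 0.085, adjusted p 0.00718), and Coq4 and the electron transfer flavoprotein gene Etfa had -0.28 and -0.33 (adjusted p 0.0391 and 0.00273). Of 14 tested regulators of mitochondrial biogenesis 1 rose (7.14%, beside 12.7% of all tested genes) and 0 fell. It was Tfb1m, which methylates mitochondrial ribosomal RNA, at 11.9, 11.1 and 12.5 CPM in the WT cultures against 14.4, 14.5 and 14.7 CPM in the Edf1 knockout ones (0.30 on the log2 scale with SE 0.091, adjusted p 0.0296). At an unadjusted p under 0.05 this list had 4 rises and 2 falls, and with DESeq2 and limma voom 1 rise and 0 falls each. The rise with DESeq2 was in another gene, since Tfb1m did not pass there (adjusted p 0.0704 in DESeq2). In edgeR Tfb1m did not pass whichever knockout library was left out, or without WT replicate 1.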

How the data were processed

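RNA of 6 libraries (TRIzol, MGIEasy mRNA kit, per the labels) was sequenced. The deposited values are whole-number read counts per gene symbol, made by the authors. The submitters' processing notes name FastQC 0.11.2, cutadapt 1.11, HISAT2 2.1.0 and the build GRCm38. The counting program, its annotation and strand setting are not given in the sources used here.

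The counts were fitted in R 4.3.3 with edgeR 4.0.16 (filterByExpr, TMM, quasi-likelihood test of knockout against WT, Benjamini-Hochberg over 14243 genes, threshold 0.05). The SE was obtained as the log2 fold change over the root of the F statistic. CPM used TMM-scaled library sizes. Per-length values divide CPM by the shortest principal GENCODE M21 transcript. Alternatives were DESeq2 1.42.0, limma 3.58.1 voom, and other scaling, filters and threshold. Further ones were GC content and length offsets (natural splines, 4 degrees of freedom each), a block for the replicate number, and fits with 1 library left out. Another left out the members with over 20% of their 31-base stretches shared with other annotated genes. The fit was tested on simulated counts. Named with values in every library were all changed members, in each complex the members with the highest and lowest log2 fold change and the highest CPM per kb, the complex II genes, subunits with several forms, and the changed genes with the highest and lowest log2 fold change in each further pathway list. Other names were chosen after their values were seen, as were the 5 Mb stretches. The members and all lists were chosen with earlier results of these data known.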

Additional observations from a re-analysis of the deposited data

How the results depend on the processing

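The rise of Atp5b and the falls of Ndufb5 and Cox7a2 passed in all 15 refits, and each of the other 10 falls missed the threshold in at least 2. Of the losses with all 6 libraries kept, Ndufv3 did not pass with DESeq2 size factors, library size alone, limma voom or a mean of 50 counts, and Ndufb9 did not pass with the GC content and length offsets, with or without the replicate block. With 1 library left out, members called higher numbered 1 to 2 and members called lower 2 to 18, and all changed genes 2658 to 4340. The range of falls was 1 to 9 in complex I, 0 to 1 in complex II, 0 to 3 in complex III, 1 to 2 in complex IV and 0 to 3 in complex V, and of rises 0 to 1 in complex I. At an adjusted p under 0.01 the falls numbered 2 over all members, 1 in complex I and 0 in complexes II, III and V, and 2213 of all tested genes changed. With GC content and length offsets 2 members rose, 1 of them in complex I (Ndufa5), and the medians were -0.039 in complex III and 0.020 in complex IV, and the cause was not tested. These 4 values were the same with the replicate block added to the offsets. The replicate block alone gave 16 falls and 1 rise among the members and 4065 changed genes. The replicate numbers share only a number, with correlations of deviations of 0.069, 0.060 and 0.037 between same-numbered libraries. Leaving out the members in the 5 Mb stretch that holds Atp5b, chosen after seeing the data, left 0 rises among the members and 0 in complex V. That outcome was fixed in advance, since Atp5b was the only member there and the only one that rose.

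For single genes, markers included, 673 of the alternative values kept direction and call, 84 (17 genes) lost the call, 7 (2 genes) gained one and 33 (8 genes) changed sign, none of these 33 past the threshold. With the offsets, log2 fold changes above 0 were 0.017 for Cox4i1, 0.032 for Cox6b1, 0.063 for Cox6b2, 0.023 for Cox7a2l, 0.076 for Sdhb and 0.092 for Uqcr10, and with the replicate block added 0.018, 0.033, 0.057, 0.023, 0.077 and 0.091. With library size alone Sdhb was at 0.0091 and Uqcr10 at 0.013, and with limma voom at 0.0074 and 0.0068. Uqcr10 was at 0.0013 with DESeq2 size factors, 0.0017 with DESeq2, 0.0014 with every gene of at least 1 count and 0.0043 with a mean of 50 counts. With 1 library left out the ranges were -0.11 to 0.013 for Cox4i1, -0.27 to 0.24 for Cox4i2, -0.089 to 0.044 for Cox6b2, -0.083 to 0.27 for Cox7a1, -0.053 to 0.090 for Sdhb and -0.046 to 0.045 for Uqcr10.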
